A study of Homo sapiens with 8 samples.

Results

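The mRNAs of 10 glycolytic enzymes (GPI, PFKP, ALDOA, TPI1, GAPDH, PGK1, PGAM1, ENO1, PKM and LDHA) were followed through ribosome profiling of U2OS cells. They were chosen by name, as enzymes of the pathway, and all 10 are among the 26902 entries of the deposited table. U2OS is an established human osteosarcoma line. The cells overexpressed QKI7, one of the isoforms of QKI, an RNA-binding protein, or carried an empty vector. Every culture had been given 0.5 mM sodium arsenite (NaAsO2), an oxidative stressor, for 1 h, so the vector cells are stressed cells too and arsenite itself was not compared. Each construct gave 2 libraries of input RNA depleted of ribosomal RNA and 2 libraries of ribosome footprints, fragments of 17 to 34 nt that ribosomes protect from nuclease. The 4 groups are therefore QKI7 input, vector input, QKI7 footprint and vector footprint, with 2 libraries in each. The labels name no separate cultures behind the 2 libraries of a group, so p-values reflect spread that could be technical. The constructs are named only as overexpression and empty vector, and the labels do not say whether the cells were 1 clone or a pool.

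Values are TPM, each entry's length-corrected share of all transcripts in the table, with non-coding RNA included. Protein-coding mRNA took 4.25% and 4.53% of TPM in QKI7 inputs and 3.73% and 4.01% in vector inputs. In footprint libraries it took 0.687% and 0.696% with QKI7 and 0.710% and 0.711% with vector. TPM keeps no read depth, so no counting interval can be given. QKI stood at 1580 and 1749 TPM in QKI7 inputs and 3.01 and 3.45 TPM in vector inputs, the direction that the labels give. Of 8 mesenchymal markers, 5 were at 1 TPM or more in all 4 inputs, with summed levels of 125 to 135 TPM in QKI7 inputs and 139 to 143 TPM in vector inputs, but COL1A2 was at 0.03 to 0.07 TPM and RUNX2 at 0.27 to 0.72 TPM. The 4 epithelial, 4 blood and 4 neural markers summed to at most 1.5 TPM in any input.

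Glycolysis splits glucose into pyruvate in the cytosol and yields ATP without oxygen. In its upper part GPI, PFKP and ALDOA turn glucose phosphate into triose phosphates, which TPI1 interconverts. In its lower part GAPDH, PGK1, PGAM1, ENO1 and PKM carry the triose to pyruvate, with ATP made by PGK1 and PKM, and LDHA reduces pyruvate to lactate and regenerates NAD. Tumour lines commonly run the pathway at a high rate, and its enzymes are among the most abundant proteins of proliferating cells. QKI binds RNA and is known for roles in splicing, stability and translation of its targets.

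The 10 genes lie on chromosomes 1 (ENO1), 10 (PFKP and PGAM1), 11 (LDHA), 12 (TPI1 and GAPDH), 15 (PKM), 16 (ALDOA), 19 (GPI) and X (PGK1) in the RefSeq annotation of GRCh38.p14. The promoters of PGK1, ENO1 and LDHA are shown because these 3 genes, with TPI1, had a lower translation efficiency with QKI7 and are textbook targets of the hypoxia-inducible factors. Each window is the 250 bases before the first listed RefSeq start, 5′ to 3′ on the gene's strand, at chrX:78103998-78104247 (plus strand) for PGK1, chr1:8878687-8878936 (minus strand) for ENO1 and chr11:18394313-18394562 (plus strand) for LDHA. Capitals mark the letters ACGTG on either strand, the only form of the core bound by those factors that was searched for. A window without ACGTG may hold another form of that core.
PGK1: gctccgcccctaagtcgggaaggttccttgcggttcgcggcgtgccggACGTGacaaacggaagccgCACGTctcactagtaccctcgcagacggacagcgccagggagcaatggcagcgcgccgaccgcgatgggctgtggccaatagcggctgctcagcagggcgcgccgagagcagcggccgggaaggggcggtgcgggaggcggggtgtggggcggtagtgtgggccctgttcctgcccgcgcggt
ENO1: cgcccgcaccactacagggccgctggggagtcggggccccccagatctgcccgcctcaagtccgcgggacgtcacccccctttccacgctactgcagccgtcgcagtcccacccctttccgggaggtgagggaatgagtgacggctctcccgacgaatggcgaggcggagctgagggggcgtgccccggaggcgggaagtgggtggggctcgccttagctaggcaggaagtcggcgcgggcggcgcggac
LDHA: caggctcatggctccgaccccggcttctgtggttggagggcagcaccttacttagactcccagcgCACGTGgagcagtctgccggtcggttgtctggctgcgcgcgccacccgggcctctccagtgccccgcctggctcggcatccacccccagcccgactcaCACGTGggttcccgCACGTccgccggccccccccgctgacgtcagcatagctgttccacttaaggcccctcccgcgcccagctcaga
ACGTG was found in 2 places for PGK1, in none for ENO1 and 5 times over both strands for LDHA, where CACGTG reads the same on both strands and so counts on each. It was present in 5 of the 10 windows (PGK1, LDHA, GAPDH, GPI and ALDOA), in 18.7% of the 27305 RefSeq promoter windows of that length and in 20.8% of the 15843 of protein-coding genes. The letters GGGCGG, which Sp1 binds, were present on either strand in 7 of 10 windows, in 42.3% of all and in 56% of those of protein-coding genes. These are matches of letters, not measured sites. The window of TPI1 overlaps the start of the annotated gene and is not printed. Those of GPI, PFKP, GAPDH, PGAM1 and PKM lie wholly inside the annotated gene. The counts over the 10 windows include them.

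Among the input RNAs, PKM and GAPDH were the most abundant of the 10. PKM, pyruvate kinase, had 69.20 and 66.41 TPM in QKI7 inputs, against 65.66 and 72.10 TPM in vector inputs. GAPDH, the dehydrogenase of the first oxidation step, had 51.72 and 48.24 TPM in QKI7 inputs, against 52.75 and 55.77 TPM in vector inputs. The PKM libraries of the constructs overlap, and those of GAPDH do not, with QKI7 below vector. Among protein-coding genes of the table (18783), PKM ranked 37 in QKI7 inputs and 32 in vector inputs, and GAPDH 57 and 51. ENO1, enolase, came next at 25.80 and 24.11 TPM in QKI7 inputs, against 26.67 and 27.18 TPM in vector inputs. The remaining 7 lay between 4.29 and 14.14 TPM in QKI7 inputs and between 3.52 and 12.66 TPM in vector inputs.

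The order of input levels was close to the same in both constructs. It ran PKM, GAPDH, ENO1, TPI1, ALDOA, PFKP, PGK1, PGAM1, LDHA and GPI in QKI7 inputs, where the last 3 overlap one another. In vector inputs it ran PKM, GAPDH, ENO1, ALDOA, TPI1, PFKP, PGAM1, GPI, LDHA and PGK1, where GPI and LDHA overlap. PGK1, phosphoglycerate kinase, was thus seventh with QKI7 and last with vector, with rank 1734 and rank 2489 among protein-coding genes.

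Footprints gave a different order. GAPDH had 137.65 and 144.16 TPM in QKI7 footprints, against 160.47 and 160.01 TPM in vector footprints. It ranked 3 and 2 among protein-coding genes and held 75.0% of the members' summed mean footprint TPM with QKI7 and 72.6% with vector, where in inputs it held 25.6% and 27.5%. PKM, first in the inputs, had 8.61 and 9.26 TPM in QKI7 footprints, against 10.76 and 10.87 TPM in vector footprints. LDHA, near the bottom in the inputs, had 8.60 and 8.76 TPM in QKI7 footprints, against 11.07 and 10.10 TPM in vector footprints, so that PKM and LDHA overlap in both constructs. ENO1 lay second in both, and GPI and PFKP closed the order with 0.23 to 0.78 TPM over all 4 footprint libraries. As deposited, footprints of GPI and PFKP are below the pseudocount of 1 TPM used in the tests, which therefore understate their changes most.

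**Figure D1:**
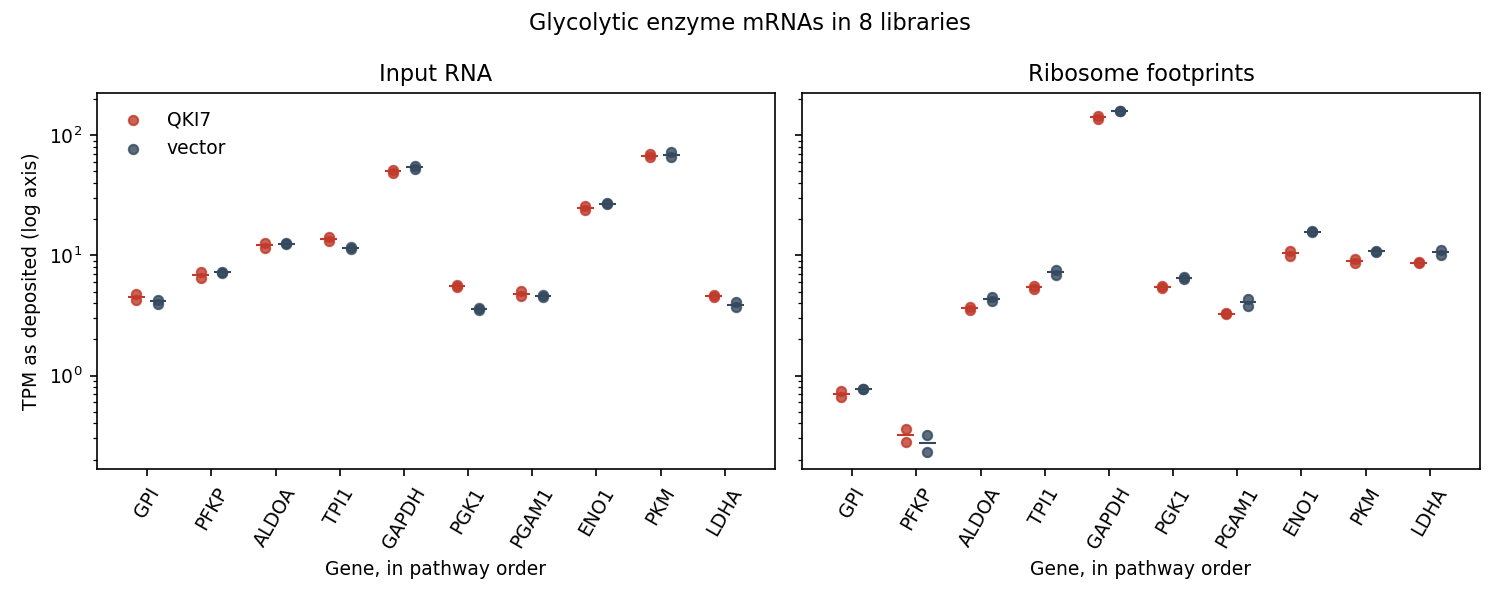
TPM as deposited (log axis) of the 10 glycolytic enzyme mRNAs in pathway order, in input RNA (left) and ribosome footprints (right). Points are libraries, bars are means of 2 libraries, with QKI7 left of vector; GAPDH stands at 137.65 to 160.47 TPM in footprints, while PFKP lies at 0.23 to 0.36 TPM.

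Footprints per input RNA differed widely between the enzymes. The ratio of mean footprint TPM to mean input TPM was highest for GAPDH, at 2.82 with QKI7 and 2.95 with vector, and lowest for PFKP, the platelet-type phosphofructokinase of the first committed step, at 0.0466 and 0.0380. That is a span of 60.5-fold within the pathway in QKI7 cells and 77.8-fold in vector cells. The median ratio of the 7295 protein-coding genes with an input of at least 1 TPM was 0.0405 with QKI7 and 0.0416 with vector. Protein-coding mRNA is also a smaller share of the footprint libraries, and its part in that low median was not tested. Against that median, GAPDH was 69.7-fold higher with QKI7 and 70.9-fold higher with vector. LDHA was 46.9-fold and 65.1-fold higher, and PGK1 24.3-fold and 43.3-fold.

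The other ratios over the median were 16.8 with QKI7 and 21.2 with vector for PGAM1, 10.3 and 14.1 for ENO1 and 9.82 and 15.1 for TPI1. ALDOA, aldolase, followed at 7.43 and 8.27, GPI, the glucose phosphate isomerase, at 3.84 and 4.50 and PKM at 3.26 and 3.77. PFKP lay at the median, at 1.15 with QKI7 and 0.912 with vector. All 10 were above the median in QKI7 cells and 9 of 10 in vector cells. PKM and GAPDH thus differed by over an order of magnitude in footprints per RNA at mean input levels of 67.8 and 49.98 TPM with QKI7.

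**Figure D2:**
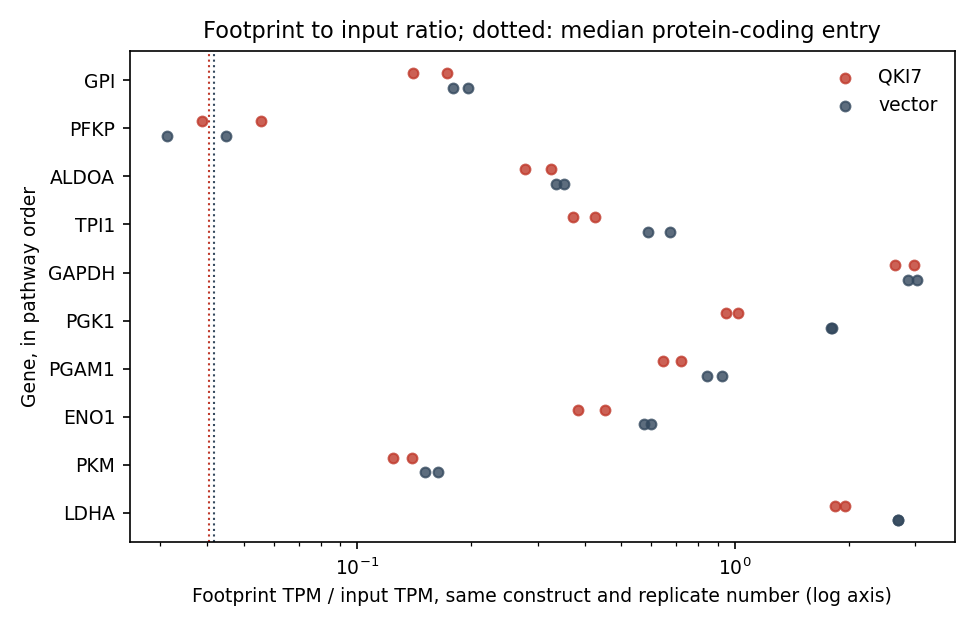
Footprint TPM divided by input TPM (log axis) for each enzyme mRNA, from libraries of the same construct and replicate number, which names libraries and does not pair them. Red points are QKI7, dark points vector and dotted lines the median protein-coding gene (0.0405 with QKI7, 0.0416 with vector); 9 of 10 genes lie to the right of both lines.

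In the fit of log2(TPM + 1) with limma, GAPDH and LDHA footprints exceeded their inputs in QKI7 cells and 7 others were lower (log2 change -2.79 for PKM to 1.48 for GAPDH), where 7.42% of the 5806 entries tested were called higher and 90.8% lower. PGK1 was not called there (-0.02, SE 0.064, adjusted p = 0.752). In vector cells GAPDH, PGK1 and LDHA were higher and 6 others lower, where 7.7% of entries were called higher and 89.9% lower, and PGAM1 was not called (-0.15, adjusted p = 0.0884). Where each library was instead scaled to the median mRNA, called the mRNA scale here, 9 of 10 were called higher with QKI7 and 9 of 10 with vector, all but PFKP, where 66% and 65.7% of 3423 entries were called higher. The sign of a single footprint-to-input change thus depends on the scale. The calls and the shares of entries called also depend in part on the filter, a mean of at least 1 over the 8 libraries after scaling. As deposited, GPI and PFKP pass it only through their inputs. On the mRNA scale GPI and LDHA, with inputs of 0.772 to 0.905, pass it only through their footprints. PKM was lowest as deposited in QKI7 cells (-2.79) and PFKP on the mRNA scale (0.080). That order depends on the size of the pseudocount against the values. With a pseudocount of 0.1 as deposited, PFKP was lowest in QKI7 cells, at -4.06 against -2.91 for PKM.

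QKI7 and vector cells were first compared at the RNA level, in the inputs. PGK1 had 5.69 and 5.46 TPM in QKI7 inputs, against 3.52 and 3.64 TPM in vector inputs. The groups do not overlap, and the log2 change was 0.52 (SE 0.064, limma adjusted p = 0.00140). TPI1, triosephosphate isomerase, had 14.14 and 13.23 TPM in QKI7 inputs, against 11.70 and 11.24 TPM in vector inputs. It was higher with QKI7 by 0.24 (SE 0.079, adjusted p = 0.0427), and that call was lost whichever library was left out (adjusted p = 0.0534 to 0.173). PGK1 was called in all 8 such fits.

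LDHA had 4.67 and 4.47 TPM in QKI7 inputs, against 4.08 and 3.73 TPM in vector inputs. Its groups do not overlap, but its change of 0.18 missed the threshold (SE 0.075, adjusted p = 0.0779). GAPDH (-0.12, adjusted p = 0.316) and ENO1 (-0.11, adjusted p = 0.322) lay lower in both QKI7 inputs than in both vector inputs without passing the test. GPI, PFKP, ALDOA, PGAM1 and PKM had overlapping groups and changes of -0.07 to 0.11.

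In all, 2 of the 10 were called higher and 0 lower at the RNA level, where 39.1% of all entries were called higher and 5.48% lower. By unadjusted p, LDHA would pass 0.05 as well and none of the 5 that lay lower. Groups that did not overlap numbered 3 higher and 2 lower, where 57.8% and 11.6% of entries did so. The members' median change was 0.01, and that of all entries 0.15, beside the larger mRNA share of the QKI7 inputs. On the mRNA scale, where the median of all entries was -0.02, PGK1 was at 0.21 (adjusted p = 0.0906) and TPI1 at 0.05 (adjusted p = 1), and neither was called. Under mRNA sum scaling PGK1 was at 0.37 (limma adjusted p = 0.00207) and TPI1 at 0.07 (adjusted p = 0.494). The mRNA scale divides inputs by 4.51 to 5.49 before the pseudocount is added, which shrinks input changes. PGK1 inputs became 1.04 and 1.06 with QKI7 and 0.781 and 0.753 with vector on the mRNA scale. There GAPDH alone was called, at -0.28 (SE 0.050, adjusted p = 0.0445), where 2.89% of entries were called lower and 0.38% higher; the call was kept in 2 of the 8 fits that leave out 1 library.

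At the footprint level most of the 10 lay lower with QKI7. ENO1 had 9.88 and 10.89 TPM in QKI7 footprints, against 16.01 and 15.64 TPM in vector footprints. The groups stand well apart, and the log2 change was -0.56 (SE 0.083, limma adjusted p = 0.00531). It was called in all 16 alternative fits, with changes of -0.77 to -0.50. TPI1 had 5.26 and 5.62 TPM in QKI7 footprints, against 6.88 and 7.58 TPM in vector footprints. It fell by 0.35 on the log2 scale (SE 0.079, adjusted p = 0.0330), a call kept in 2 of 8 fits without 1 library.

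The other footprint changes did not pass the test. LDHA stood at -0.26 (SE 0.075, adjusted p = 0.0841), PKM at -0.25 (SE 0.087, adjusted p = 0.145) and PGAM1, phosphoglycerate mutase, at -0.25 (SE 0.075, adjusted p = 0.0966). PGK1, with 5.38 and 5.58 TPM in QKI7 footprints against 6.33 and 6.59 TPM in vector footprints, stood at -0.20 (SE 0.064, adjusted p = 0.107). ALDOA was at -0.19, GAPDH at -0.18 and GPI at -0.06. PFKP alone lay above 0, at 0.05, and its groups overlap.

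The call thus covered 2 of 10, where 4.6% of all entries were called lower and 3.6% higher. Both QKI7 footprint libraries lay below both vector libraries for 9 of 10, where 22.4% of entries did so, and above them for 0 of 10, where 30.4% did so. Those shares move with footprint level. Among the 301 protein-coding genes tested with footprints averaging 3 TPM or more, a class added after seeing the data that holds 8 of the members, 78.4% had QKI7 below vector without overlap and 36.9% were called lower. The median change was -0.29 in that class and -0.25 for the 8 members in it, with 2 called. Read against those shares, the counts show nothing particular to the enzymes at the footprint level.

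On the mRNA scale 9 of 10 were called lower in QKI7 footprints, all but PFKP, where 33.9% of entries were called lower and 13.9% higher. The changes ran from -0.77 for ENO1 (SE 0.060, adjusted p = 0.000356) to -0.24 for GPI (SE 0.055, adjusted p = 0.0129), with GAPDH at -0.36 (SE 0.050, adjusted p = 0.00216). All 9 were called in each of the 8 fits that leave out 1 library. In the class of at least 3 TPM the share called lower was 81.1% on that scale, and the median change was -0.49, against -0.45 for the 8 members there.

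The RELN entry took 9.28% and 9.16% of all mRNA TPM in QKI7 footprints and 1.23% and 1.34% in vector footprints. In inputs it stood at only 0.02 to 0.04 TPM, so what its footprint signal represents is not known. Its part in the lower shares of other mRNAs was not tested. The 10 glycolytic mRNAs together took 2.67% and 2.76% of mRNA TPM in QKI7 footprints, against 3.12% and 3.10% in vector footprints. Without GAPDH they took 0.663% and 0.693% in QKI7 footprints, against 0.855% and 0.845% in vector footprints. In inputs they took 0.443% and 0.446% with QKI7 and 0.516% and 0.505% with vector.

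**Figure D3:**
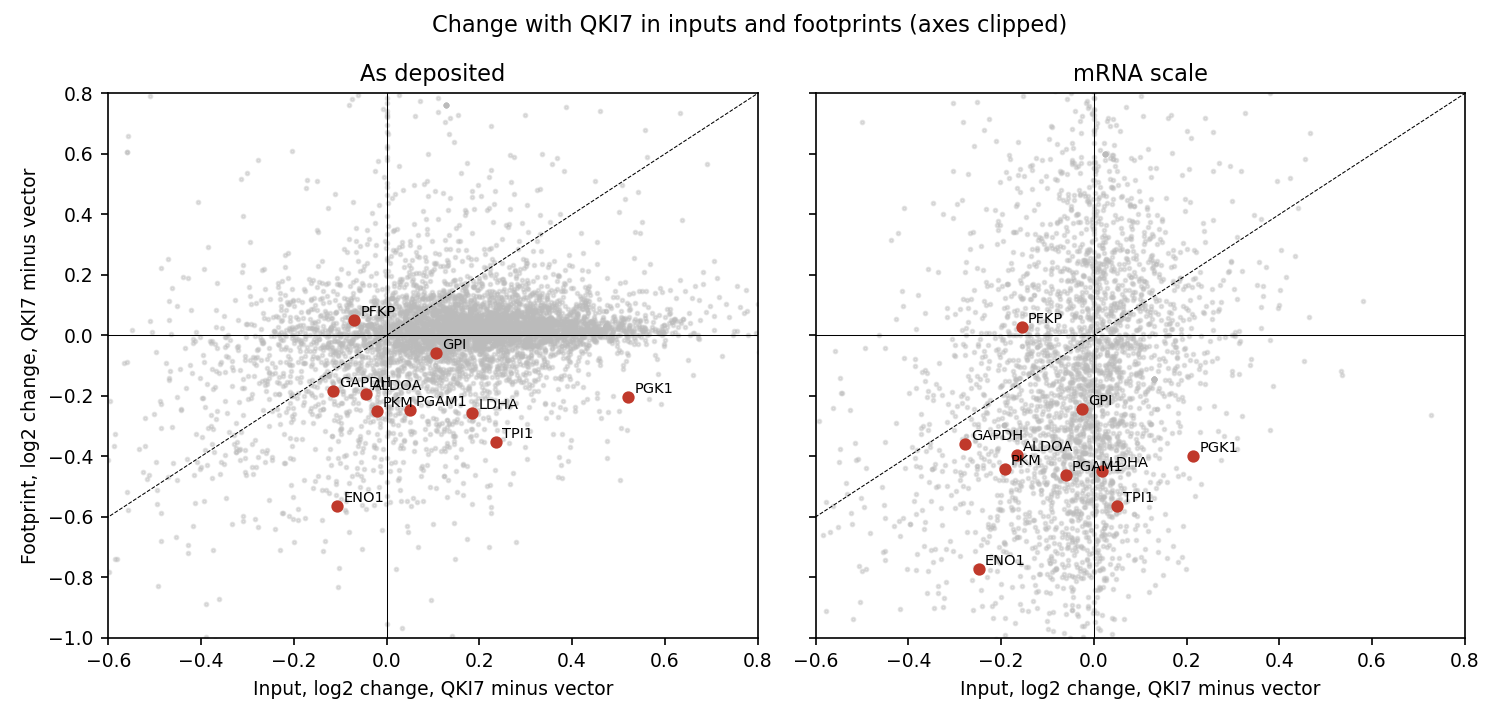
Log2 change, QKI7 minus vector, in inputs (x) and footprints (y) for the 10 enzymes (red) over all entries tested (grey), as deposited (left, 5806 entries) and on the mRNA scale (right, 3423 entries). The dashed line marks equal change; 9 enzymes lie below it and PFKP above it in both panels, with PGK1 farthest below it as deposited (0.52 and -0.20), and the axes leave out entries with larger changes.

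Translation efficiency, the footprint change minus the input change, was lower with QKI7 for 4 of 10, where 21.6% of entries were called lower and 3.57% higher. PGK1 stood at -0.72 (SE 0.090, limma adjusted p = 0.00577), TPI1 at -0.59 (SE 0.112, adjusted p = 0.0144), ENO1 at -0.46 (SE 0.117, adjusted p = 0.0292) and LDHA at -0.44 (SE 0.106, adjusted p = 0.0247). No member was called higher. As plain ratios of group means, without the pseudocount, footprints per input RNA in QKI7 cells were 0.545 of those in vector cells for PGK1, 0.631 for TPI1, 0.701 for LDHA and 0.708 for ENO1.

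These 4 were not composed alike. PGK1 combined a called higher RNA level with footprints below vector that missed the threshold, TPI1 a called higher RNA level with called lower footprints, and ENO1 called lower footprints with an RNA level at -0.11. LDHA had neither of its parts called. PGK1 gave 0.946 and 1.02 footprint TPM per input TPM in QKI7 cells, against 1.80 and 1.81 in vector cells. LDHA gave 1.84 and 1.96 in QKI7 cells, against 2.71 and 2.71 in vector cells. Both genes' QKI7 ratios lie below their vector ratios, as do those of 6 other members, GAPDH and PFKP being the exceptions. These ratios divide libraries of the same replicate number, which are not paired. The share of all entries with ratios apart in this way was not tested, and their median translation efficiency change was itself -0.16.

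The other 6 did not pass the test. PGAM1 was at -0.30 (adjusted p = 0.0719), PKM at -0.23 (adjusted p = 0.191), GPI at -0.16 (adjusted p = 0.214), ALDOA at -0.15 (adjusted p = 0.315) and GAPDH at -0.07 (95% interval -0.36 to 0.23, adjusted p = 0.710). PFKP was at 0.12 (95% interval -0.11 to 0.35, adjusted p = 0.389). The median of all entries was -0.16, which lies within the GAPDH interval and below that of PFKP, and the members' median was -0.26. In the class of at least 3 TPM in footprints, 21.6% were called lower and the median was -0.15, against -0.37 for the 8 members there.

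The same 4 genes were called lower on the mRNA scale, at -0.61 for TPI1 (adjusted p = 0.00847) and PGK1 (adjusted p = 0.00398), -0.52 for ENO1 (adjusted p = 0.00961) and -0.47 for LDHA (adjusted p = 0.0211), where 17.4% of entries were called lower and 9.06% higher. In the class of at least 3 TPM that share was 41.2%. Among alternatives to the fit as deposited, PGK1 was called in all 16 (-0.86 to -0.55) and TPI1 in 14 of 16, while LDHA was called in 7 of 16 and ENO1 in 6 of 17. Leaving out 1 library in turn as deposited kept PGK1 in 8 of 8 fits, TPI1 in 6, LDHA in 3 and ENO1 in 2. On the mRNA scale it kept PGK1 and TPI1 in 8 of 8 fits, ENO1 in 6 and LDHA in 4.

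**Figure D4:**
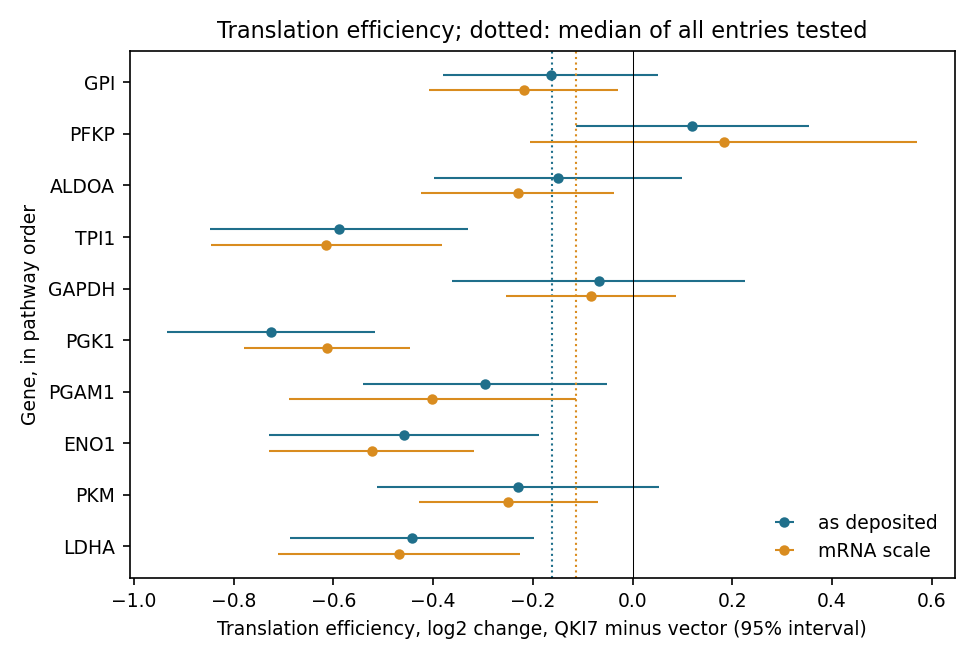
Log2 change of translation efficiency, QKI7 minus vector, with 95% intervals from limma, as deposited (blue) and on the mRNA scale (orange); dotted lines are the medians of all entries tested (-0.16 and -0.11). TPI1, PGK1, ENO1 and LDHA have intervals wholly below both medians, and GAPDH and PFKP have intervals that span 0 on both.

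Reads shared with pseudogenes may bear on these values, which was not tested. RefSeq lists 65 pseudogenes named after GAPDH, 13 after PGAM1, 6 after LDHA, 5 after PKM, 4 each after TPI1 and ENO1 and 2 each after ALDOA and PGK1, and of these only 2 of TPI1 and 1 of PGAM1 are entries of the table. TPI1P2, TPI1P3 and PGAM1P5 were at most 0.25 TPM in any library, as were ENO1-AS1, antisense to ENO1, and the PGAM1 retrocopy PGAM4. SPSB2, which overlaps TPI1 on the annotation, had 2.37 and 2.12 TPM in QKI7 inputs, against 1.68 and 1.80 TPM in vector inputs. The labels do not give how strand or reads with several matches were treated, so the split between these copies is uncertain.

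By the fixed rule of likeness, the root mean square distance between centred log2(TPM + 1) values over the 8 libraries, the genes nearest to the members' median profile were CCT8 (distance 0.0508), a subunit of the chaperonin, ASNS (0.0563), asparagine synthetase, SRP9 (0.0719), a protein of the signal recognition particle, EEF1B2 (0.0760), a translation elongation factor, and DPM1 (0.0800), a mannosyltransferase subunit, out of 5096 candidates. Among the members TPI1 and ENO1 lay nearest to that profile (0.0763 each) and GAPDH farthest from it (1.23). As the profile is the median of these same members, the nearness of its middle genes is built in. CCT8 had 2.16 and 2.35 TPM in QKI7 footprints, against 3.45 and 3.53 TPM in vector footprints, with 7.55 and 6.45 TPM in QKI7 inputs, against 6.29 and 6.36 TPM in vector inputs.

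Around the 10 enzymes, other isozymes of the pathway were mostly low, and 7 of 20 could be tested as deposited. At the RNA level 4 of these rose with QKI7 and 0 fell, where 39.1% of all entries were called higher. ENO2, the neuronal enolase, had 16.78 and 16.21 TPM in QKI7 inputs, against 11.49 and 10.28 TPM in vector inputs (log2 change 0.56, adjusted p = 0.00200), and its footprints were at 0.50 to 0.78 TPM. PFKL (0.35), PFKM (0.26) and the hexokinase HK2 (0.17) rose too. LDHB, the partner subunit of LDHA, had 16.44 and 17.16 TPM in QKI7 footprints, against 21.68 and 21.69 TPM in vector footprints (-0.35, adjusted p = 0.0356). Translation efficiency fell for LDHB (-0.39, adjusted p = 0.0414) and ENO2 (-0.41, adjusted p = 0.0320), where 21.6% of all entries were called lower. Footprints of ENO2 lie below the pseudocount of 1 TPM, so its efficiency value rests mostly on its higher input. On the mRNA scale, 4 were tested and none was called at the RNA level, LDHB was again lower in footprints (-0.54) and in translation efficiency (-0.44), and PFKL was higher in footprints (0.27).

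Of 8 genes of glucose and lactate transport, 4 were tested. The glucose carriers SLC2A3 (0.43, adjusted p = 0.00208) and SLC2A1 (0.29, adjusted p = 0.00832) rose in QKI7 inputs, where 39.1% of all entries were called higher. BSG, the chaperone of the lactate carriers, fell (-0.28, adjusted p = 0.0365), where 5.48% were called lower. Translation efficiency was lower for SLC2A1 and SLC2A3 (-0.33 each), where 21.6% of all entries were called lower. Footprints of both lay below the pseudocount of 1 TPM, which shrinks their footprint changes. None of these RNA or efficiency changes was called on the mRNA scale, where 3 of 4 genes were lower in QKI7 footprints instead (SLC16A1 at -0.59, BSG at -0.29 and SLC2A1 at -0.21) and 33.9% of entries were. Among 11 regulators, 5 were tested. PFKFB4 (0.38) and PFKFB2 (0.33), which set the level of the phosphofructokinase activator fructose 2,6-bisphosphate, rose in QKI7 inputs. Both were called lower in translation efficiency (-0.35 for PFKFB4 and -0.29 for PFKFB2). Their footprints were at 0.02 to 0.16 TPM, far below the pseudocount of 1 TPM. These efficiency values therefore rest almost wholly on the input changes and do not show a change in footprints per RNA. MYC, a transcription factor that acts on many glycolytic genes, had 23.31 and 21.34 TPM in QKI7 inputs, against 34.75 and 41.46 TPM in vector inputs. It fell by 0.74 on the log2 scale (SE 0.103, adjusted p = 0.00201), and by 0.81 on the mRNA scale. There both regulators tested, MYC (-0.59) and HIF1A (-0.57), were also lower in QKI7 footprints.

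In the pathways that branch from glycolysis, PGD of the pentose phosphate pathway rose in QKI7 inputs (0.30, adjusted p = 0.0202) and fell in translation efficiency (-0.39, adjusted p = 0.0436), as 1 of 4 tested genes of 8. Of all entries, 39.1% were called higher in inputs and 21.6% lower in translation efficiency. Neither of the 2 tested genes of the pyruvate dehydrogenase list (13 genes) was called as deposited, but on the mRNA scale PDHB, the 1 gene tested, was lower in footprints (-0.66, adjusted p = 0.00952) and in translation efficiency (-0.68, adjusted p = 0.0487). Of the 7 gluconeogenesis genes, 0 were tested. Of 20 citric acid cycle genes 12 were tested: ACO1 rose (0.31) and MDH2 fell (-0.25) in inputs, MDH1 fell in footprints (-0.27), and ACO1 (-0.35) and CS (-0.31) fell in translation efficiency. Footprints of ACO1 and CS lay below the pseudocount of 1 TPM, which shrinks their footprint changes. On the mRNA scale the RNA calls of PGD, ACO1 and MDH2 were lost. There 9 of 15 tested genes of the citric acid cycle were lower in QKI7 footprints, where 33.9% of all entries were. The share of 81.1% for footprints of at least 3 TPM does not serve as a comparison. All genes of this list but MDH1 lay below 3 TPM in every footprint library. The list's median was -0.41 and that of all entries -0.14. In translation efficiency 6 of 15 were lower, where 17.4% of all entries were. PGD was lower in footprints (-0.29) and in translation efficiency (-0.37).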

How the data were processed

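The deposited table holds TPM to 2 decimals, made by the authors with RSEM 1.2.31 and STAR on GRCh38, as far as the submitters' processing notes name tools and build. The authors' TPM include non-coding RNA and spike-ins. From them log2(TPM + 1) was computed wherever an entry averaged 1 TPM or more across the 8 libraries (5806 entries), and fitted with limma 3.58.1 in R 4.3.3 (lmFit, eBayes with a variance trend), with 4 group means and 4 residual degrees of freedom. Groups came from the labels. Two-sided p-values had Benjamini-Hochberg adjustment across all tested entries, and 0.05 was the threshold. An exact permutation test of 2 against 2 libraries cannot go below 0.333. The mRNA scale divides each library by its median ratio over 4989 protein-coding genes and tests 3423 entries. Other settings were another pseudocount, filter, scaling or variance model, a replicate block and leaving out each library.

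All 10 members, 7 pathway lists of 87 genes, the markers and the rules for named genes were chosen with earlier results of these data known. Named list genes are those past the threshold, largest first. The class of at least 3 TPM in footprints and the block and left-out libraries on the mRNA scale were added after seeing the data. Replicate numbers are shared across groups in the labels, but nothing there pairs the libraries, and deviations of same-numbered libraries correlated at -0.088 to 0.125.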

Additional observations from a re-analysis of the deposited data

Results flagged for a closer look

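The response to QKI7 differed between footprints and inputs, by the interaction of library type and construct in limma, for 4 of the 10 enzymes, where 21.6% of all entries tested were called lower, and on the mRNA scale 17.4% of all and 41.2% of protein-coding genes with footprints of at least 3 TPM. The footprint change minus the input change was -0.72 for PGK1, -0.59 for TPI1, -0.46 for ENO1 and -0.44 for LDHA, with adjusted p = 0.00577 for PGK1, 0.0144 for TPI1, 0.0292 for ENO1 and 0.0247 for LDHA. Groups of 2 libraries are too small to look for single libraries that stand apart.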

How the results depend on the processing

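Members called at the RNA level numbered 2, both higher, and 1 with a pseudocount of 0.1, 0 with a mean of at least 10 TPM (3 members left in the test), 1 (lower) under mRNA median scaling, 6 (1 higher and 5 lower) under mRNA sum scaling, 2 (1 higher and 1 lower) under quantile normalization, 1 (higher) under spike-in scaling and 1 in every fit without 1 library. On the mRNA scale that count of 1 became 0 to 1 without 1 library. For footprints the 2 called became 1 with no filter, 5 under quantile normalization, 9 under mRNA median scaling and 1 to 2 without 1 library. For translation efficiency the 4 called became 2 with a pseudocount of 0.1, 2 with no filter, 1 at a mean of at least 10 TPM, 3 under mRNA sum scaling (2 lower, and PFKP higher at 0.29, adjusted p = 0.0469) and 1 to 4 without 1 library, and on the mRNA scale 2 to 6. Footprint against input kept 3 called members in each construct at a mean of at least 10 TPM. A replicate block gave 1 member at the RNA level (0 on the mRNA scale), 1 for footprints and 3 for translation efficiency; as the numbers only name libraries, pairing is not given by the design.

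Under mRNA median scaling the footprint against input change turned positive in QKI7 cells for GPI (1.16), PFKP (0.080), ALDOA (2.40), TPI1 (2.82), PGK1 (3.64), PGAM1 (3.04), ENO1 (3.05) and PKM (1.57), and in vector cells for GPI (1.38), ALDOA (2.63), TPI1 (3.44), PGAM1 (3.44), ENO1 (3.58) and PKM (1.82). This follows from the scaling, which sets the level between library types. No change between constructs reversed while called. The number of reads behind each value is unknown.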
